A study of Homo sapiens with 2 samples.

Results

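The 10 genes described here, CD40, TRAF1, BIRC3, NFKB1, NFKB2, RELA, RELB, NFKBIA, TNFAIP3 and CFLAR, are parts or known targets of the NF-κB pathway downstream of the receptor CD40. They were taken by gene symbol and not by a rule on measured values, though earlier results of these data were known. They are 10 of the 16645 annotated genes with a read, and their reads fell into 497 of the 237608 transcript models. The RNA came from GM12878, an established B-lymphoblastoid line transformed with Epstein-Barr virus, and was sequenced as native strands on Oxford Nanopore flow cells (direct RNA sequencing). Replicates 1 and 2 form the only group: both are untreated as far as the labels say, of 1 cell line, with no control line, stimulation or batch label. The labels do not say whether the replicates came from separate cultures, so each p-value below compares the reads of the 2 libraries against counting error and says nothing of a condition.

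CD40 is a cell surface receptor of the TNF receptor superfamily. Its ligation recruits TRAF adaptors and BIRC proteins, and from there both arms of NF-κB signalling are switched on. In the canonical arm the inhibitor IκBα, the product of NFKBIA, is degraded and dimers of RelA with the p50 product of NFKB1 enter the nucleus; in the non-canonical arm the NFKB2 product p100 is processed to p52, the partner of RelB. Many of these genes are themselves NF-κB targets, TRAF1, BIRC3, TNFAIP3 and CFLAR among them. In B cells transformed by Epstein-Barr virus, the viral membrane protein LMP1 signals through the same adaptors without a ligand.

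Replicate 1 held 1360368 reads and replicate 2 held 1510998, so that 1 read was worth 0.735 and 0.662 CPM (counts scaled to a common library total). Of the B cell markers looked up, 7 of 7 were read in both libraries, with a summed level of 9089 and 9443 CPM. Most of that sum was CD74, at 7766 and 8088 CPM. Of the T cell markers CD3D and CD3G had no read, while CD3E had 5 and 16 reads and CD2 had 3 and 10, a sum of 5.88 and 17.2 CPM. Monocyte markers summed to 2.94 and 5.29 CPM with LYZ at 0 reads, and the erythroid markers HBB and GATA1 had none. Across all annotated genes the share of reads in known transcript models was 56.5% in replicate 1 and 46.4% in replicate 2, a difference between the libraries that touches every result on transcript structure below.

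Since several of the genes are controlled by the pathway they belong to, their promoters were searched for the DNA letters bound by NF-κB (a κB site). RefSeq windows on GRCh38.p14, from 250 bases before to 50 bases after the gene's start, were at hand for 8 of the 10 genes, in 17 windows; RELB and CD40 were not in the table. A narrow form of the site, GGGA and TTTCC with 1 base between them on either strand, was present in 4 of the 8 genes and in 0.678% of the 27305 genes of the table. These are the 4 sites, written 5′ to 3′ on the gene's strand with the matched bases in capitals; in NFKBIA and TNFAIP3 the match is on the opposite strand.
NFKB1: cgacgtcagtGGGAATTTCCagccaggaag
NFKB2: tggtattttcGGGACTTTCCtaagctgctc
NFKBIA: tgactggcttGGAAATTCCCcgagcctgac
TNFAIP3: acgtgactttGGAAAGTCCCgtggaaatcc
The printed stretches lie at chr4:102501300-102501329, chr10:102395674-102395703, chr14:35404811-35404840 and chr6:137867182-137867211. The looser NF-κB consensus was present in 5 of the 8 genes (62.5%), the addition being BIRC3, against 9.16% of all genes in the table. Among 67 other pathway genes with a window, 6 (8.96%) held the narrow form and 22 (32.8%) the consensus. TRAF1, CFLAR and RELA had no match to either in these windows. A match is a string of letters in a window, and no binding was measured here.

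The 10 genes together took 1606 reads in replicate 1 and 2063 in replicate 2. That is 0.118% (Wilson 95% interval 0.112 to 0.124) and 0.137% (0.131 to 0.143) of the libraries, a mean of 0.127% ± 0.0131 (SD, n = 2). The intervals do not overlap, and they cover counting error only. The median level over the 10 genes was 94.7 CPM, beside a median of 22.1 CPM over the 10634 annotated genes with at least 10 reads, and every one of the 10 was read in both libraries. In direct RNA sequencing 1 read is 1 RNA strand, so CPM counts strands and is not divided by length unless stated.

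At the top of the pathway, the receptor CD40 (chr20:46118272-46129863, plus strand) had 233 and 268 reads, a level of 171 and 177 CPM. The adaptor TRAF1 (chr9:120902393-120929173, minus strand), which binds TRAF2, had the highest mean level of the set, with 265 and 273 CPM, rank 496 of all genes; NFKBIA was above it in replicate 2. With genomic models left out and CPM taken over the reads kept, TRAF1 had a mean of 148 CPM, below NFKBIA (209), NFKB2 (194) and CD40 (163). BIRC3 (chr11:102317450-102339403), the ubiquitin ligase cIAP2, was lower, at 62.5 and 77.4 CPM. CD40 and TRAF1 were thus nearly equal in the 2 libraries, with a spread of 4.31 and 5.68 CPM (SD, n = 2).

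Among the transcription factor subunits, NFKB2 (chr10:102394110-102402529) stood above the other 3, at 151 and 185 CPM. RELA (chr11:65653596-65663094, minus strand) had 52.2 and 70.2 CPM, NFKB1 (chr4:102501329-102617302) had 42.6 and 64.2 CPM, and RELB (chr19:45001430-45038198) had 45.6 and 49.0 CPM. The lowest NFKB2 library lay above the highest library of RELA, NFKB1 and RELB. The range of NFKB1 overlapped those of both RELA and RELB, while the lower RELA library lay above the higher RELB library. REL, the remaining family member able to activate transcription, had 4 reads in each library.

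The inhibitor NFKBIA (chr14:35401511-35404749, minus strand), which retains NF-κB in the cytoplasm and is resynthesised after activation, had 201 and 280 CPM (274 and 423 reads). TNFAIP3 (chr6:137867188-137883312), whose product A20 edits ubiquitin chains to end signalling, had 79.4 and 62.9 CPM and was the only gene of the 10 that was lower in replicate 2. CFLAR (chr2:201116104-201176687), which encodes the caspase-8 inhibitor c-FLIP, had 110 and 127 CPM. Ordered by mean level, the series ran TRAF1, NFKBIA, CD40, NFKB2, CFLAR, TNFAIP3, BIRC3, RELA, NFKB1 and RELB. Neighbours overlapped in range for TRAF1 with NFKBIA, for CD40 with NFKB2, and for each pair from TNFAIP3 down to RELB, but not for NFKBIA with CD40, NFKB2 with CFLAR or CFLAR with TNFAIP3.

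**Figure D1:**
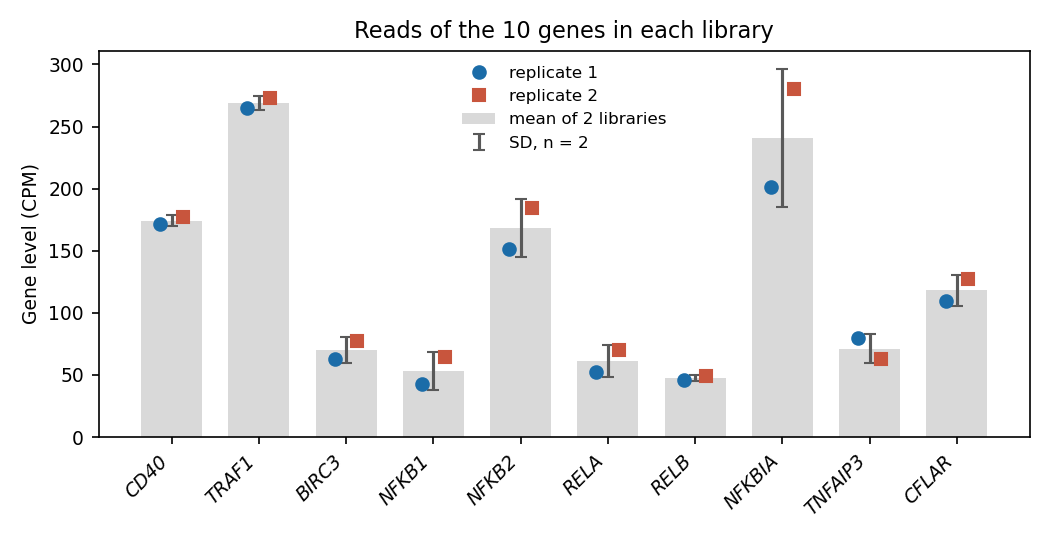
Level of the 10 genes in CPM, with replicate 1 as circles, replicate 2 as squares, bars at the mean and error bars at ± 1 SD (n = 2). TRAF1 has the highest mean (265 and 273 CPM), NFKBIA shows the widest gap between libraries at 201 and 280 CPM and is above TRAF1 in replicate 2, and TNFAIP3 alone is lower in replicate 2.

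Division by the read-weighted length of the known transcripts changes the order. On the scale of CPM per kilobase, NFKBIA led at 156, followed by CFLAR at 113, BIRC3 at 109 and CD40 at 102, with NFKB2 at 53.0 and TRAF1 at 46.7. The BIRC3 value rests on a length of 644 bases from only 2 known reads. Few known reads also gave the lengths of TRAF1 (4 in replicate 1 and 3 in replicate 2) and TNFAIP3 (7 and 1). RELA (22.7), RELB (21.3), TNFAIP3 (15.4) and NFKB1 (13.6) closed the order. NFKB2 was above the other 3 subunits on both scales when all models were counted. With known models only, and CPM taken over the known reads, RELB was higher, at 27.4 CPM against 23.2 CPM for NFKB2.

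Between the libraries, reads per gene were compared by a two-sided exact binomial test with Benjamini-Hochberg adjustment over 10634 genes, of which 5.05% passed at 0.05 and 2.72% passed with a higher level in replicate 2. Of the 10 genes 1 passed, NFKBIA, which was higher in replicate 2 by 0.47 on the log2 scale (interval 0.25 to 0.70; adjusted p = 0.0011, exact binomial test). When only known transcript models were counted the NFKBIA difference was 0.24 and did not pass (adjusted p = 0.396), with the median of all genes at -0.26. NFKB1 had a larger log2 ratio, 0.59, from 58 and 97 reads, and did not pass (adjusted p = 0.164). With known models only it was lower in replicate 2, at -2.10, and passed (adjusted p = 0.0327, exact binomial test), as did CD40 at -0.71 (adjusted p = 0.0182), each from fewer reads. In that setting 7 of the 10 genes had enough reads for the test, and 1042 of 5528 genes passed. With all models counted, NFKB2 did not pass at 0.29 (adjusted p = 0.251). In all, 9 of the 10 genes were higher in replicate 2, beside 5437 of the 10634 genes tested. The median log2 ratio was 0.25, beside 0.01 over all genes tested. With known models only, NFKB1, NFKB2, RELA, RELB and CD40 were lower in replicate 2, and NFKBIA and CFLAR were higher.

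The transcript models to which these reads belong fall into 5 categories. Known models match an annotated transcript; incomplete splice matches (ISM) follow an annotated transcript over part of its exons only; NIC models join annotated splice sites in a new way and NNC models use at least 1 unannotated site; genomic models overlap a gene without following its splicing. Over the 10 genes, known models took 24.2% of reads in replicate 1 and 15.8% in replicate 2, ISM models 39.6% and 41.6%, and genomic models 22.8% and 33.5%. NIC models took 6.54% and 3.93%, and NNC models 6.85% and 5.19%. Over all annotated genes the ISM share was 24.0% and 32.3% and the genomic share 10.9% and 15.3%, so that in both libraries the 10 genes had a lower known share and higher ISM and genomic shares than annotated genes as a whole.

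The genes differed widely among themselves in these shares. NFKB2, TNFAIP3 and RELB had few or no genomic reads: NFKB2 had 71.4% and 84.2% of its reads in ISM models and 0 and 1 genomic reads, TNFAIP3 had 78.7% and 86.3% in ISM models and 5 and 9 genomic reads, and RELB had no genomic read among 62 and 74. At the other end, genomic models held 40.8% and 67.9% of RELA reads, 41.9% and 61.7% of TRAF1 reads, and 44.7% and 49.6% of BIRC3 reads. By the mean of the libraries, the known share was highest for NFKBIA (48.5% and 33.8%), CFLAR (67 of 149 and 78 of 192 reads) and CD40 (45.5% and 22.0%), with RELB (37.1% and 23.0%) above CD40 in replicate 2, and lowest for TRAF1 and BIRC3, near 1% in each library (TRAF1 1.11% and 0.728%; BIRC3 1.18% and 0.855%). TRAF1, with the most reads over both libraries, had 4 and 3 known reads.

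**Figure D2:**
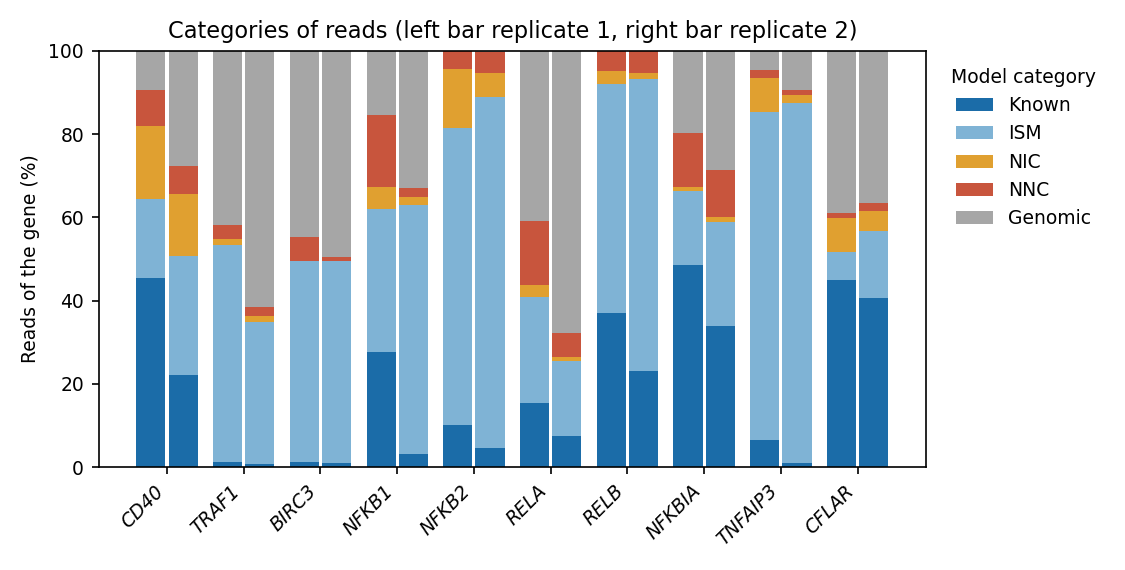
Share of each gene's reads (percent) by category of transcript model, with replicate 1 on the left and replicate 2 on the right of each pair. Known models are nearly missing from TRAF1 and BIRC3, genomic models are nearly missing from NFKB2 and RELB, and the known part is smaller in replicate 2 for all 10 genes.

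The known share was lower in replicate 2 in 10 of 10 genes, and in 5032 of the 6340 genes tested, with 698 higher. The median change was -6.74 points in the 10 genes and -8.62 points over all genes tested. Medians in replicates 1 and 2 were 21.5% and 6.10% in the 10 genes, and 32.5% and 17.5% over the 6340 genes. By Fisher's exact test with adjustment over those genes, 3 of the 10 passed; 27.1% of all genes did so, 26.9% with the lower share in replicate 2, and 3 of 10 is near that background. CD40 fell from 45.5% to 22.0% (adjusted p = 5.94e-07), NFKB1 from 27.6% to 3.09% (adjusted p = 1.48e-04), and NFKBIA from 48.5% to 33.8% (adjusted p = 0.0012, all Fisher's exact test). For NFKB1 this stands for 16 of 58 reads in replicate 1 and 3 of 97 in replicate 2.

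A direct RNA read begins at the 3′ end, so in a model that keeps that end the number of exons tells how far the read extends. The counts below include ISM reads of every kind. Suffixes, which keep the 3′ end, were 59.3% of ISM reads in replicate 1 and 71.8% in replicate 2. NFKB1, which has 24 exons in its longest coding transcript, was read through a mean of 15.8 exons in replicate 1 and 7.77 in replicate 2 over known and ISM reads. All 24 exons were covered in 16 of 36 such reads in replicate 1 and in 2 of 61 in replicate 2. An ISM model of the last 3 exons, 1199 bases long and equal in length to exons 22 to 24 of NFKB1-201, had 0 reads in replicate 1 and 19 in replicate 2. The mean number of exons was lower in replicate 2 for each of the 10 genes, least for CFLAR (4.57 and 4.42) and most for NFKB1.

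In NFKB2, with 23 exons, the number of reads dropped between 11 and 12 exons. In replicate 1, 113 of 168 known and ISM reads covered 11 exons or more and 79 covered 12 or more; in replicate 2 the numbers were 127 and 83 of 248. A further drop lay between 22 exons (47 and 28 reads) and 23 (21 and 12 reads), and the 26 and 16 reads between them belong to a pair of 22-exon models whose lengths, given below, equal the whole transcript with its first intron. TRAF1 dropped most between 7 and 8 exons: 136 of 192 reads in replicate 1 and 67 of 144 in replicate 2 covered 7 exons or more, while 4 and 3 covered 8. A smaller TRAF1 drop lay between 4 exons (85.9% and 71.5% of reads) and 5 (74.0% and 48.6%). In CD40, whose coding transcripts have at most 9 exons, 104 of 150 and 58 of 136 reads covered 9.

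**Figure D3:**
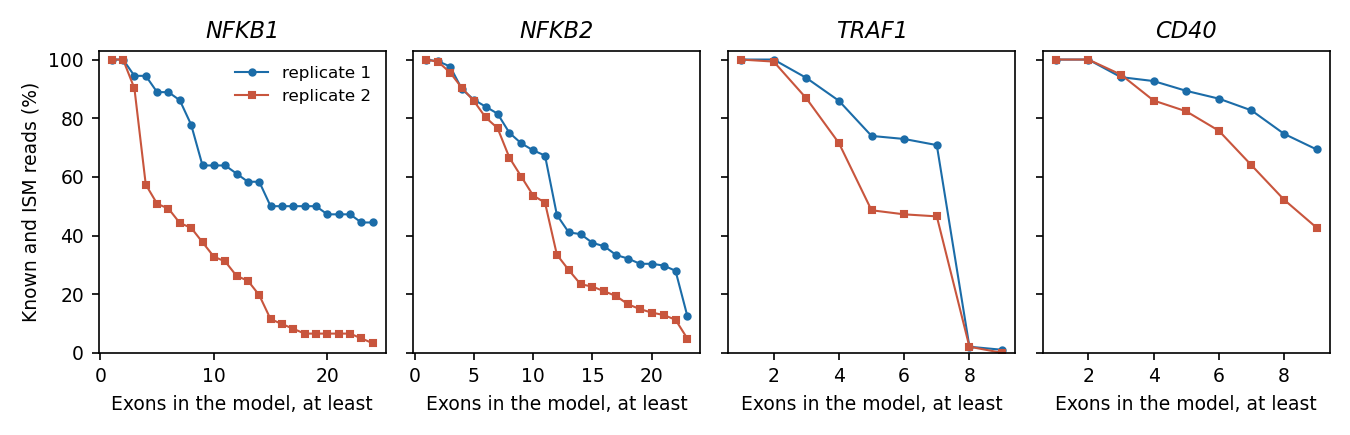
Percent of known and ISM reads whose model has at least the number of exons on the x axis, for 4 of the genes, with replicate 1 as circles and replicate 2 as squares. TRAF1 drops after 4 exons and further after 7 in both libraries, NFKB2 drops after 11 and after 22, and the NFKB1 lines separate between 3 and 4 exons, where replicate 2 has 19 reads of a single model.

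The TRAF1 drop after 7 exons comes largely from 1 model. An ISM model of 7 exons and 4104 bases held 128 reads in replicate 1 and 64 in replicate 2, 35.6% and 15.5% of the gene. Its length equals that of the last 7 exons of TRAF1-201 and of TRAF1-202, which differ only upstream of those exons; the stretch holds the whole coding region of 416 codons. TRAF1-201 itself, of 6324 bases, had 2 and 3 reads, and TRAF1-202 had 2 and 0. So although TRAF1 had almost no known reads, by length its most read spliced model covered the full coding region and lacked only upstream exons. Its genomic reads lay mostly in single intervals. The one with most reads, of 650 bases, had 80 and 133 and was the most read model of the gene over both libraries.

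TNFAIP3 was read mainly as its last exon. A single-exon ISM model of 1714 bases took 67 reads in replicate 1 and 66 in replicate 2, 62.0% and 69.5% of the gene. Its length is that of the last exon of TNFAIP3-208 and TNFAIP3-210 (chr6:137881035-137882748), which is shorter than the last exon of TNFAIP3-206, 2277 bases long. Known TNFAIP3 models had 7 and 1 reads, and a 3-exon suffix of 3379 bases, equal to the last 3 exons of TNFAIP3-206, had 10 and 9. Models matching each of these last exons by length were thus read in both libraries. Length alone does not show where the reads ended.

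In BIRC3 the 2 largest models were a genomic interval of 2225 bases (38 and 56 reads) and an ISM model of 8 exons and 3079 bases (19 and 21 reads), and known models had 1 read in each library. In RELA, which encodes the p65 subunit, a genomic interval of 1224 bases had 29 and 71 reads while the full RELA-202 of 551 codons had 11 and 8. An NNC model of RELA with 10 exons and 2499 bases was seen 8 and 5 times. With genomic models left out, the log2 ratio of RELA went from 0.42 to -0.38, and that of TRAF1 from 0.04 to -0.48 (adjusted p = 0.0225, exact binomial test). In that setting 723 of 8758 genes passed.

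For the last exon of NFKB2, the annotation offers 2 acceptor sites 3 bases apart. NFKB2-201 and NFKB2-204 start exon 23 at chr10:102402255 and encode 899 codons; NFKB2-203 starts it at chr10:102402252 and encodes 900. The junction is shown on GRCh38, with the bases that only NFKB2-203 has in capitals.
NFKB2-201: agctgcccagcacagaggtgaaggaagaca
NFKB2-203: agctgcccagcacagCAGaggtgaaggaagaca
Among annotated models the longer form had 2 of 21 reads in replicate 1 and 1 of 12 in replicate 2. A NIC model of 23 exons and 3014 bases, the length of NFKB2-201 plus 3 bases, had a further 8 and 0 reads beside the 10 and 4 of NFKB2-201, so the annotated models alone do not give the share of the longer form among full-length reads. The ISM models gave a larger sample. Among those that could be placed by length, 9 pairs of models had the same number of exons and lengths that differed by 3 bases. The 11-exon pair, of 1731 and 1734 bases, had 18 and 23 reads without the 3 bases and 13 and 19 reads with them. The pair with 22 exons, whose lengths equal those of all exons plus the 91-base first intron of NFKB2-201, had 14 and 9 reads without and 12 and 7 with.

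Over all ISM models of NFKB2 that could be placed by length, 38 of 83 reads in replicate 1 carried the 3 bases, 45.8% (Wilson 95% interval 35.5 to 56.5), and 50 of 114 in replicate 2, 43.9% (35.1 to 53.0). The placed reads were 83 of 147 and 114 of 235 ISM reads of the gene. The intervals overlap nearly in full, and no difference between the libraries was detectable at this depth. With annotated and ISM reads joined the shares were 38.5% and 40.5%. The placement rests on lengths of the models; the table holds no coordinates, and the effect of alignment on a shift of 3 bases was not tested. NFKB2 had 144 models in all, of which 84 had a single read. Its most read NIC model, of 23 exons and 2927 bases, had 9 reads in replicate 1 and 1 in replicate 2.

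RELB has a comparable choice, a 9-base exon 3 (chr19:45009814-45009822) that is in RELB-201, of 579 codons, and not in RELB-202, of 576. The exon is in capitals between the ends of its neighbours.
RELB-201: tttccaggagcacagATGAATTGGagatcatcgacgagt
RELB-202: tttccaggagcacagagatcatcgacgagt
RELB-202 had 23 and 17 reads and was the only known model of the gene with any. RELB-201 had 0 in both libraries, a count that allows up to 3 reads of it in each. The effect of alignment on an exon of 9 bases was not tested. ISM models equal in length to the last exons of RELB-201 began at exon 4 or later, so they do not show whether exon 3 was present. A single-exon ISM model of 790 bases, the length of the last exon of RELB-201, had 9 and 20 reads.

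CFLAR is known for 2 protein forms, a long one with an inactive caspase-like domain and a short one that ends soon after the death effector domains. The exon that ends the short form lies at chr2:201141374-201141602, and the long form skips it for an exon at chr2:201145378-201145432. The shared exon end is in lower case below and the first bases of each alternative are in capitals, for the short CFLAR-212 and the long CFLAR-208.
CFLAR-212: tcaaataacttcaggATGATAACACCCTAT
CFLAR-208: tcaaataacttcaggCTCCATAATGGGAGA
Models with the short form's exon took 43 of 67 known reads in replicate 1, 64.2% (Wilson 95% interval 52.2 to 74.6), and 50 of 78 in replicate 2, 64.1% (53.0 to 73.9). All but 1 and 4 of these reads were of models with the 221 codons of the short form; those were of CFLAR-220, annotated with 117 codons and an incomplete end. Models with the long form's exon took 2 reads in each library, 2.99% and 2.56%. The remaining 22 and 26 reads were of models with neither exon, led by the retained-intron model CFLAR-218 with 14 and 15. CFLAR-208, with 10 exons and 2128 bases, is longer than CFLAR-212, with 5 exons and 1198 bases. These percentages are of known reads only. Incomplete reads belong to other categories, with 10 and 31 ISM reads and 58 and 70 genomic reads, and their part in the ratio of the forms was not tested. The ISM reads include a model of 9 exons and 2117 bases, with 1 and 5 reads. They also include one equal in length to the last 3 exons of the short-form CFLAR-203, with 0 and 3. A model equal in length to the last 5 exons of the long-form CFLAR-208 had 2 and 0 reads. Another, equal to the last 4 exons of CFLAR-208, had 0 and 2.

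For NFKBIA the known reads were nearly all of 1 transcript. NFKBIA-201, of 6 exons and 317 codons, had 125 of 133 known reads in replicate 1 and 127 of 143 in replicate 2. An NNC model with the same 6 exons in number and the same 1558 bases in length had a further 32 and 42 reads, the most read NNC model of the 10 genes. A genomic interval of 416 bases had 53 and 116 reads and a 2-exon suffix of 810 bases had 28 and 53, beside the 125 and 127 of NFKBIA-201. The higher count of NFKBIA in replicate 2 was therefore made up mostly of reads outside known models.

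CD40-202, the full receptor of 277 codons, had 104 and 58 reads, 44.6% and 21.6% of CD40. Its most read NIC model, of 8 exons and 1508 bases, had 30 and 25 reads, so that this unannotated combination of annotated splice sites took 12.9% and 9.33% of the gene in the 2 libraries. A genomic interval of 1838 bases had 19 reads in replicate 1 and 66 in replicate 2, more there than CD40-202. The near equality of CD40 between the libraries thus joins a lower count of the full transcript with a higher count of genomic reads.

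Use of the most read known model was testable in 2 of the genes, CFLAR and NFKBIA, by Fisher's exact test over 1330 genes, of which 18.8% passed; neither of the 2 did. CFLAR-212 took 62.7% and 56.4% of known reads (adjusted p = 0.751, unadjusted p = 0.499) and NFKBIA-201 took 94.0% and 88.8% (adjusted p = 0.356, unadjusted p = 0.14; Fisher's exact test). Counting ISM, NIC and NNC models as well, all 10 genes could be tested among 4619, of which 31.2% passed, and 4 of the 10 did: TRAF1, NFKBIA, CD40 and NFKB1. In TRAF1 the 7-exon model went from 61.2% to 40.5% of spliced reads (adjusted p = 7.55e-04), and in CD40 CD40-202 went from 49.3% to 29.9% (adjusted p = 6.23e-04, both Fisher's exact test). The NFKB1 entry is the 3-exon model named above, with 0 of 49 and 19 of 65 reads. It was the most read model only through its replicate 2 reads, so the choice of model fixed this difference and its pass is no result.

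The incomplete reading of the 10 genes was set beside the length of their transcripts. Over known and ISM reads, the ISM share had a median of 60.9% and 85.1% across the 10 genes and of 40.9% and 61.5% across the 6269 genes with enough reads. With genes split into 4 bins of equal size by length, 8 of the 10 lay above the median of their bin by the mean of the libraries, and 5 did so in each library separately, BIRC3 among them. TRAF1 (97.9% in each library), TNFAIP3 (92.4% and 98.8%) and NFKB2 (87.5% and 94.8%) were far above the 62.8% and 84.0% of the longest bin, while NFKBIA (26.9% and 42.6%) and CD40 (29.3% and 56.6%) were below the 37.5% and 57.8% of theirs. BIRC3 was placed in the shortest bin by its 2 known reads alone, and its position has little meaning. TRAF1 and TNFAIP3 were also placed by few known reads.

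**Figure D4:**
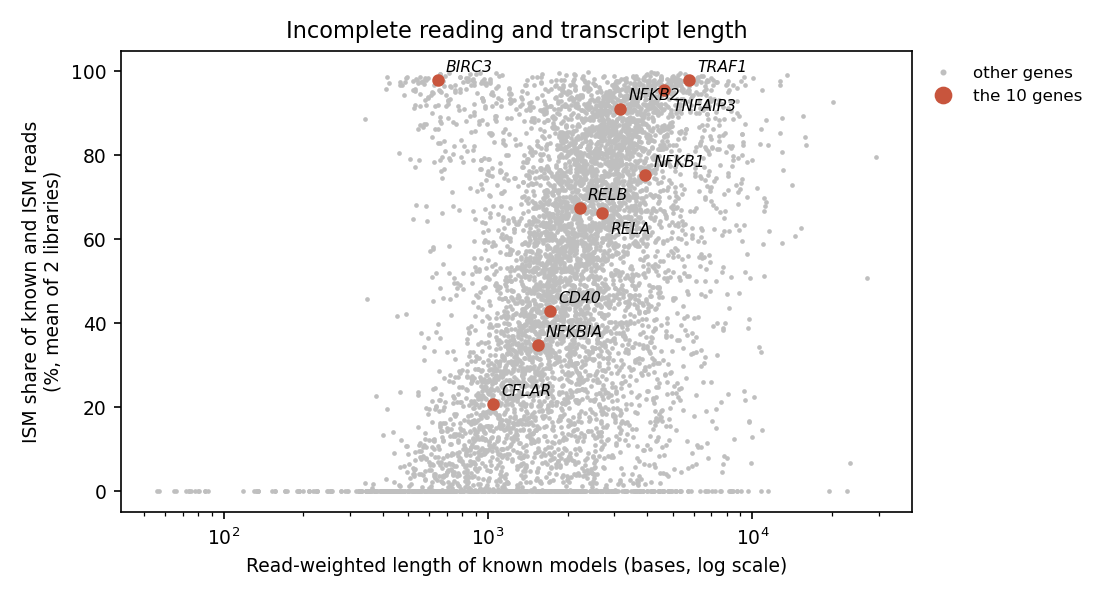
Share of known and ISM reads that were ISM (percent, mean of 2 libraries) against the read-weighted length of known models in bases on a log scale, for 6269 genes in grey and the 10 genes in red. CFLAR, NFKBIA and CD40 lie low at shorter lengths, TRAF1, TNFAIP3 and NFKB2 lie above 90% at longer ones, and BIRC3 stands apart at 644 bases.

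Of the 497 models of the 10 genes, 174 (35.0%) were read in both libraries, beside 29.9% over all annotated genes, and 279 (56.1%) rested on a single read. By category, 64.5% of 31 known models were in both (57.8% over all annotated genes), 43.7% of 247 ISM models (34.4%), 63.9% of 36 genomic models (46.7%), 19.0% of 79 NIC models (15.5%) and 7.69% of 104 NNC models (5467 of 49907 over all). The order of the categories was known, genomic, ISM, NIC and NNC in both sets. ISM reads were mostly suffixes, which keep the 3′ end, 59.3% in replicate 1 and 71.8% in replicate 2, and prefixes made up 3.77% and 4.20%.

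Other genes of the pathway were looked up in 4 lists of 78 genes in all. The 15 other receptors and adaptors had a median level of 25.5 CPM over the 14 tested, led by TNFRSF8 (CD30, 159 CPM), TNFRSF13B (TACI, 66.9 CPM) and TNFRSF13C (the BAFF receptor, 65.9 CPM). TNFRSF13C was the only one of the 14 past the library test, with 64 and 128 reads (log2 ratio 0.84, adjusted p = 0.0034, exact binomial test), and LTBR had no read in the table used here. TRAF1 lay above every gene of this list in both libraries, while CD40, at 171 and 177 CPM, overlapped the range of TNFRSF8, at 176 and 142 CPM. The 25 kinases and ubiquitin enzymes had a median of 26.1 CPM, led by the A20-binding protein TNIP1 (382 CPM), the ubiquitin-conjugating enzyme UBE2N (248 CPM) and RBCK1 of the linear ubiquitin ligase (111 CPM). There UBE2N fell by 0.48 and its partner UBE2V1 fell by 0.87 on the log2 scale in replicate 2 (adjusted p = 7.88e-04 and 7.04e-04, exact binomial test); 0 of 25 passed as higher, with 1 at an unadjusted p under 0.05.

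The other Rel and IκB family genes had a median of 42.6 CPM over the 6 tested, with the IκB proteins NFKBIE at 92.7 and NFKBIB at 47.6 CPM and the p65 regulator COMMD1 at 87.5 CPM, and 0 of 6 passed in either direction by the exact binomial test, also without adjustment (smallest unadjusted p = 0.184). NFKBIA, at 241 CPM, stood above all of them. Genes known to be raised by NF-κB or CD40 had the highest median, 83.4 CPM over 29 tested, near the 94.7 CPM of the 10 genes. The chemokine CCL22 led at 1443 CPM, followed by EBI3, a cytokine subunit first found in cells carrying Epstein-Barr virus (405 CPM), and PLEK (320 CPM). Of the 29, 14 were higher in replicate 2. The test was passed by 4 of them (2.72% of all genes passed as higher), the chemokines CCL3 (log2 ratio 1.10), CCL4 (1.46) and CCL22 (0.23) and the chemokine receptor CCR7 (0.31), and by 1 lower gene, the transcription factor IRF4 (-0.34), with adjusted p from 5.16e-08 for CCL3 to 0.0334 for CCR7 (exact binomial test). BHLHE41 had no read in the table used here.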

How the data were processed

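GM12878 RNA was read by direct RNA sequencing in 2 libraries. The table that the authors deposited gives unnormalized read counts per transcript model and library, and with the category, exon number and length of each model as other, non-measured columns. Minimap2 and hg38 are named, without a role, per the submitters' processing notes; TALON, which appears in the title of the table, assigned reads to models, and its version and filters are not given in the sources used here. All 31 known models of the 10 genes, and all 23533 in the table, matched GENCODE release 29 in identifier, length and exon number, so positions (GRCh38) and junction sequences were taken from that release, and promoter windows from RefSeq. ISM models were placed by equality of length with whole annotated exons.

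Gene counts are sums over all models. CPM divides by library totals (1360368 and 1510998 reads). Where only known models were counted, or genomic models were left out, the totals were those of the reads kept. On the full totals 3 reads, the limit that a count of 0 allows, are 2.21 and 1.99 CPM. Log2 ratios used a pseudocount of 0.5 reads. Genes needed 10 reads in both libraries together for the exact binomial test, 20 in each library for the known share test, and 20 known reads in each library with 10 in other known models for the use of models, with a threshold of 0.05. Scripts ran in Python 3.11.15 with scipy 1.17.1 and were tested on simulated data; edgeR 4.0.16 (TMM) and DESeq2 1.42.0 gave alternative scalings only. The gene SOD2 has 2 identifiers, of which the one with more reads was used. The genes and lists were chosen with earlier results of these data known. Named genes are the 10, their 2 most read models and most read NIC or NNC model of at least 5 reads, the 3 highest genes of each list and those past the library test. Not described above under this rule are genomic models of NFKB1 (9 and 31 reads, its most read model) and CFLAR (24 and 16). The same holds for NIC models of TNFAIP3 (4 and 1) and CFLAR (5 and 0). Other models named were chosen after their values were seen.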

Additional observations from a re-analysis of the deposited data

How the results depend on the processing

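Which reads are counted matters more for these genes than the scaling. The number of the 10 genes that differed between the libraries was 1 under TMM, DESeq2 scaling, other read minimums and Fisher's exact test. With known models only, 2 of the 7 genes tested differed (NFKB1 and CD40, both lower in replicate 2, without NFKBIA), and 1042 of 5528 genes did. With genomic models left out, 2 of the 10 differed (NFKBIA, and TRAF1 lower in replicate 2), and 723 of 8758 genes did. With known models only, log2 ratios reversed for NFKB1 (-2.10), NFKB2 (-0.54), RELA (-0.30), RELB (-0.29) and CD40 (-0.71), where the median of all genes was -0.26. With genomic models left out they reversed for RELA (-0.38), TRAF1 (-0.48) and CD40 (-0.20), where that median was -0.08. The median level of 94.7 CPM became 18.1 with known models only, 80.7 without genomic models and 49.9 per kilobase, and 94.5 to 102 with 1 library left out. With known models only or without genomic models, CPM and log2 ratios used the totals of the reads kept. The 10 genes held 0.127% of all reads, 0.0491% of known reads and 0.105% of reads outside genomic models. Their share of all reads was 0.118% to 0.137% with 1 library left out. Genes that passed the test of model use went from 0 to 4 once ISM, NIC and NNC models were included, NFKB1 among them through its choice of model. The known share of NFKB2 passed at a minimum of 50 reads (adjusted p = 0.0447, Fisher's exact test). In that setting 4 of the 10 genes passed, beside 1621 of 3555 genes in all, so the pass says little of NFKB2. Of the remaining values, 142 of single genes and 20 of sets kept their direction and side of the threshold or moved by less than the spread. The causes were not tested. No paired analysis was possible because both libraries belong to 1 group. NFKB1, RELA and RELB, with 58 to 106 reads a library, are the most limited by depth.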
